A study of Homo sapiens with 6 samples.

Results

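The messenger RNAs described here are 9 genes of cellular redox control: NFE2L2 (which encodes NRF2), its repressor KEAP1, and the antioxidant genes NQO1, GCLM, GCLC, TXNRD1, SRXN1, TXN and PRDX1. They are defined by a list of gene names, and all 9 were found among 11593 gene symbols, as 39 of 28768 transcript rows. The cells were SK-Hep1, a human cell line labelled as hepatocellular carcinoma, and the 6 libraries are labelled as ChIRP, in which biotinylated antisense DNA probes retrieve an RNA together with its crosslinked partners. Probes against the long noncoding RNA SNHG10 were used for 3 libraries, and probes against LacZ, a bacterial gene absent from human cells, for the 3 controls. No treatment or genetic change is named for either group, so the probe set is the only labelled difference. The series set out to find mRNAs that come down with SNHG10, whereas the labelled extraction protocol describes total RNA and no pull-down, so it is not settled which fraction these values describe. All rows are marked protein coding and the noncoding SNHG10 itself was not analysed here, so retrieval of the target could not be checked.

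NRF2 is a transcription factor that is made continuously and, in unstressed cells, handed by KEAP1 to a CUL3 ubiquitin ligase for degradation. Oxidants and electrophiles modify cysteines of KEAP1, NRF2 then builds up, pairs with a small MAF protein and binds antioxidant response elements beside genes for glutathione synthesis, quinone reduction and the thioredoxin system. In that system the reductase TXNRD1 uses NADPH to reduce thioredoxin (TXN), thioredoxin reduces the peroxide-scavenging peroxiredoxin PRDX1, and sulfiredoxin (SRXN1) rescues overoxidised peroxiredoxins. The pathway is often switched on in liver cancer through mutations of NFE2L2 or KEAP1, and whether SK-Hep1 carries such a change was not analysed here.

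The promoter sequences of these genes are shown first, since NRF2 acts through a short DNA element. The core of the antioxidant response element, TGACNNNGC, was searched on both strands in the RefSeq promoter windows of GRCh38.p14, each running from 250 bases before a gene's start to 50 after it. Its first letters are shared with the AP-1 site, so the 2 motifs can overlap. Of the 9 genes, 8 had 11 windows in that table (PRDX1 had none). A match was present in 4 of the 11 windows (36.4%), those of GCLM, KEAP1 and TXNRD1, against 13.3% of 35116 windows of all genes, and these windows held 6 matches in all. Counted by gene, 3 of the 8 had a match, against 4384 of 27305 genes. The genes were chosen as NRF2, its repressor and its targets, so a higher share than in all genes is not independent evidence. The windows below surround 1 match for each of these 3 genes, written 5′ to 3′ on the gene's strand, with the 9 bases of that match in capitals. The KEAP1 stretch also holds a further match, TGACACGGC, which begins 54 bases before the start and is left in lower case. They lie at chr1:93909431-93909490 (minus strand, GCLM), chr19:10502772-10502828 (minus strand, KEAP1) and chr12:104286904-104286963 (plus strand, TXNRD1).
GCLM: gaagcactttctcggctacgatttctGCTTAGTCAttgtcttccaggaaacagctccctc
KEAP1: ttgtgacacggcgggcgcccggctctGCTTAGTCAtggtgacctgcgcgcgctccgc
TXNRD1: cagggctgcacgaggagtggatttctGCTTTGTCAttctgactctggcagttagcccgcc

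GCLM and KEAP1 carried the same 9 letters, GCTTAGTCA, which is TGACTAAGC on the opposite strand. These began 34 bases before the GCLM start and 31 before the KEAP1 start. A match is a description of letters, not a bound site, and for the other genes it says only that these letters are not in these windows.

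The libraries were alike in their totals. Values are FPKM, fragments per kilobase of transcript scaled to the mapped fragments of the library, so levels of different genes can be set side by side per length, but each value is relative to its own library and the read depth behind it is unknown. FPKM totals ran from 268794 to 277118, and 30.5% to 33.8% of transcript rows were listed at 0 in a library. The cell line was compared with markers of the tissue named in its label. Of 10 hepatocyte markers only 2 were among the rows, with means of 0.568 and 0.931 FPKM. The others, ALB among them, had no row, so their levels are unknown here. Of 10 endothelial markers 3 were among them, at means of 1.47 to 35.5, while 4 of 6 epithelial markers had means of 18.8 to 1022. Over the 6 libraries the summed marker levels ran from 1.04 to 2.12 FPKM (hepatocyte), 42.4 to 61.8 (endothelial), 1839 to 2133 (epithelial), 1053 to 1712 (8 mesenchymal) and 36.8 to 56.5 (2 of 6 leukocyte). Some single markers separated the probe sets, with no overlap of libraries, as did 11.4% of all genes tested (743 lower and 435 higher with SNHG10 probes). They were 1 of 3 tested endothelial markers, 1 of 4 tested epithelial markers, and CPS1, which was too low to be tested. None of the 8 mesenchymal and 2 leukocyte markers separated, and none of the markers tested passed in limma. EGFL7, an endothelial marker, was lower in all 3 SNHG10 libraries (7.45 to 8.30 FPKM) than in LacZ controls (14.0 to 25.98), as were the keratin KRT8 (465 to 549 against 589 to 633) and the hepatocyte marker CPS1 (0.505 to 0.796 against 0.883 to 1.53). The 2 other endothelial markers, ENG and ROBO4, and the hepatocyte marker SERPINA1 had higher means with SNHG10 probes. TAGLN, a mesenchymal marker, ran from 1.93 to 20.99 FPKM in SNHG10 libraries and from 1.38 to 1.99 in controls, with overlap. Of the 8 mesenchymal markers, 4 were higher and 4 lower with SNHG10 probes. VIM was among the lower ones, with means of 960 against 1306 FPKM. The part of these markers in the results below was not tested. Both probe sets were used on the same cell line. Differences in the cells, in retrieval and among libraries cannot be told apart here.

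The 9 genes covered a wide range of abundance with either probe set, from the thioredoxin machinery at the top to NQO1 at the bottom. Summed over transcripts and averaged over the 6 libraries, TXNRD1 stood at 399 FPKM, PRDX1 at 203, TXN at 124, SRXN1 at 24.4, NFE2L2 at 21.7, KEAP1 at 10.1, GCLC at 5.22, GCLM at 4.95 and NQO1 at 0.613. TXNRD1 ranked number 84 by mean among 10304 tested genes, above 99.2% of them, and PRDX1 and TXN were above 98.3% and 97.3%. NFE2L2 was above 79.5% and KEAP1 above 58.9%, while GCLM and GCLC lay below most, above 34.6% and 36.5%. The 9 genes together held 0.266% to 0.304% of a library's FPKM total, and TXNRD1 alone supplied 46.5% to 54.0% of that sum.

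**Figure D1:**
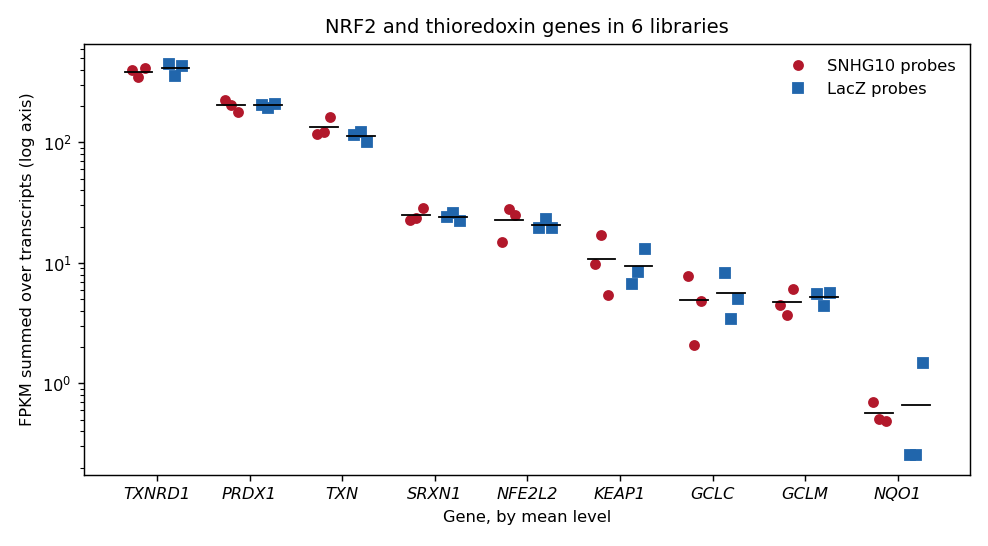
FPKM summed over transcripts (log axis) for the 9 genes in order of mean level, with circles for the 3 SNHG10 libraries, squares for the 3 LacZ libraries and bars for group means. The probe sets overlap for every gene, while levels span from 0.253 FPKM (NQO1) to 451 FPKM (TXNRD1).

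Some steps in this order were larger than the spread between libraries. TXNRD1 exceeded PRDX1 in 6 of 6 libraries, by 1.71-fold to 2.29-fold, with no overlap of their ranges. PRDX1 exceeded TXN in 6 of 6, and TXN exceeded SRXN1 by 4.57-fold to 5.71-fold. SRXN1 and NFE2L2 overlapped, SRXN1 being higher in 5 of 6 libraries, as did KEAP1 and GCLC (5 of 6). GCLC and GCLM could not be ordered, with GCLC higher in 2 of 6. NQO1 was lowest in every library, at least 3.83-fold below GCLM.

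No member passed the test for a difference between the probe sets. In the limma test across 10304 genes, which 8 of the 9 entered, 0 of the 8 passed at an adjusted p of 0.05, and none of the 8 had an unadjusted p under 0.05. Over all tested genes 0% passed, also in limma without a trend or with robust estimation, and 558 (5.42%) had an unadjusted p under 0.05. The 3 libraries of one probe set lay wholly above or below the other in 0 of the 8 genes, against 11.4% of all genes tested. Differences below are SNHG10 minus LacZ probes in log2(FPKM + 1), a scale that understates changes of low genes. Of the 8, 4 differences were positive and 4 negative, with a median of 0.03, and with median-ratio scaling 5 were positive and 3 negative. Over all tested genes 4458 differences were above and 5846 below 0, with a median of -0.05, which became 5117 and 5165 with that scaling. With 3 libraries against 3, the two-sided exact permutation test cannot give a p below 0.1. The labels do not state that the replicates were separate cultures, so all p-values here reflect spread among libraries that may be technical.

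The transcription factor and its repressor come first. NFE2L2 (chromosome 2, 178092323 to 178129859, minus strand, hg19 as for all gene and transcript positions below) stood at 14.9, 27.9 and 25.1 FPKM in SNHG10 libraries, and at 19.6, 23.3 and 19.3 in LacZ controls. SNHG10 replicate 1 was the lowest of the 6 and the other two SNHG10 libraries the highest, so the groups overlapped. Its means were 22.6 ± 6.85 and 20.7 ± 2.23 (SD, n = 3 each), a log2 difference of 0.08 ± 0.26 (SE; 95% interval -0.52 to 0.68; limma adjusted p = 0.974; exact permutation p = 0.9). KEAP1 (chromosome 19, 10596796 to 10614417, minus strand) stood at 9.79, 17.0 and 5.42 FPKM in SNHG10 libraries, and at 6.69, 8.46 and 13.1 in LacZ controls. Its highest and lowest library both had SNHG10 probes, and the log2 difference was 0.09 ± 0.42 (interval -0.88 to 1.07, limma adjusted p = 0.983). NFE2L2 exceeded KEAP1 in all 6 libraries, by ratios from 1.48 (LacZ replicate 3) to 4.62 (SNHG10 replicate 3).

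Among the targets of glutathione synthesis and quinone reduction, GCLC and GCLM encode the catalytic and the modifier subunit of glutamate-cysteine ligase, which catalyses the rate-limiting step of glutathione synthesis. GCLC (chromosome 6, 53362139 to 53409927, minus strand) stood at 7.73, 2.09 and 4.81 FPKM in SNHG10 libraries, and at 8.27, 3.40 and 5.04 in LacZ controls. Replicate 1 was high and replicate 2 low with both probe sets, and the log2 difference of -0.22 ± 0.47 had the widest interval of the 8 genes (-1.30 to 0.87, limma adjusted p = 0.966). GCLM (chromosome 1, 94350761 to 94374966, minus strand) read 4.46, 3.66 and 6.09 against 5.47, 4.36 and 5.67 FPKM (SNHG10 before LacZ, here and below), with overlapping groups and a log2 difference of -0.12 ± 0.30 (interval -0.82 to 0.58, limma adjusted p = 0.968). The ratio of GCLC to GCLM went from 0.571 to 1.73, higher than 1 only in replicate 1 of each probe set.

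NQO1, the NAD(P)H quinone reductase that is widely used as a readout of NRF2, was the lowest of the 9. Located on chromosome 16 (69743304 to 69760854, minus strand), it stood at 0.706, 0.503 and 0.483 FPKM in SNHG10 libraries, and at 0.254, 0.253 and 1.48 in LacZ controls. LacZ replicate 3 was the only library at 1 FPKM or more, and the other two LacZ libraries were the lowest of all. The gene therefore missed the filter of at least 1 FPKM in 3 libraries and did not enter the test of 10304 genes (exact permutation p = 1). In a limma fit with no such filter its log2 difference was -0.01 ± 0.41 (adjusted p = 0.998).

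The thioredoxin genes were the most abundant and, of the 8 tested, had the narrowest intervals. TXNRD1 (chromosome 12, 104679780 to 104744083, plus strand) stood at 395, 350 and 411 FPKM in SNHG10 libraries, and at 451, 356 and 429 in LacZ controls. Replicate 2 was lowest with both probe sets and the groups overlapped. Its log2 difference was -0.09 ± 0.12, with a 95% interval of -0.36 to 0.18 on the log2 scale, that is 0.778-fold to 1.13-fold (limma adjusted p = 0.938; exact permutation p = 0.5). PRDX1 (chromosome 1, 45976708 to 45988719, minus strand) read 224, 205 and 180 against 205, 193 and 210 FPKM, means of 203 ± 22.2 and 203 ± 8.75 (SD, n = 3 each). This log2 difference of -0.003 ± 0.11 was the smallest of the 8 (interval -0.26 to 0.26, limma adjusted p = 0.998), and it turned to 0.057 with median-ratio scaling of the libraries.

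TXN had the smallest p-value of the members and did not pass. Thioredoxin mRNA (chromosome 9, 113006091 to 113018920, minus strand) stood at 117, 123 and 162 FPKM in SNHG10 libraries, and at 116, 122 and 101 in LacZ controls. SNHG10 replicate 3 stood above the rest and LacZ replicate 3 below, while the other 4 libraries lay between 116 and 123. The log2 difference was 0.24 ± 0.16 (interval -0.12 to 0.60, limma adjusted p = 0.928, exact permutation p = 0.2), and it dropped to 0.09 without SNHG10 replicate 3. SRXN1 (chromosome 20, 627259 to 634014, minus strand) read 22.6, 23.8 and 28.4 against 23.9, 25.8 and 22.1 FPKM, a log2 difference of 0.05 ± 0.18 (limma adjusted p = 0.975). The ratio of TXNRD1 to its substrate TXN was 3.37, 2.85 and 2.54 with SNHG10 probes, as against 3.90, 2.92 and 4.26 with LacZ probes, with overlapping libraries. RefSeq lists 7 pseudogenes named after TXN and 1 each named after PRDX1 and SRXN1, so reads of these genes could have been shared with such copies. EID3 overlaps TXNRD1 on the same strand, at 9.48 to 20.98 FPKM, and MMACHC overlaps PRDX1 on the opposite strand, at 2.54 to 4.53 FPKM, and whether the counting used strand is not given in the sources used here.

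**Figure D2:**
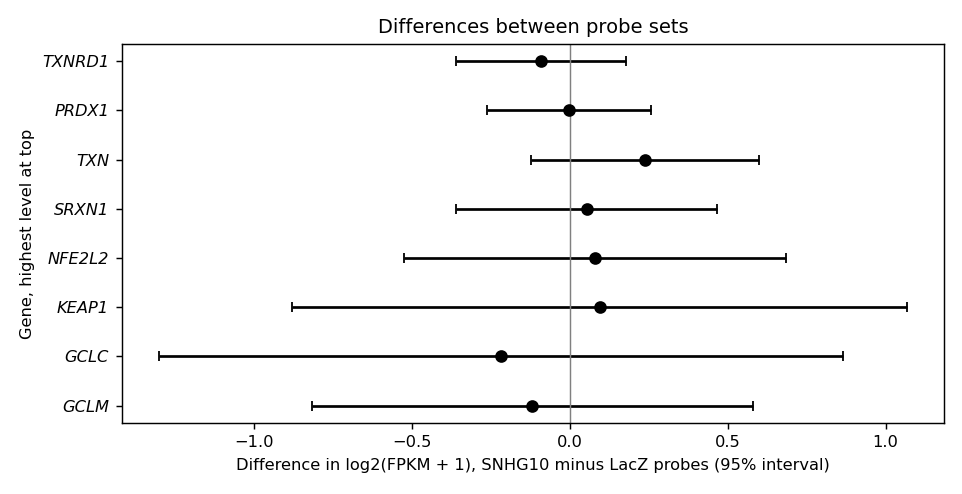
Difference in log2(FPKM + 1) between SNHG10 and LacZ probes for the 8 tested genes, ordered by level with the highest at the top. Points are limma estimates from 3 libraries per probe set and bars their 95% intervals, all of which include 0; the intervals of KEAP1 and GCLC are wider than those of TXNRD1 and PRDX1.

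The spread over libraries differed between the genes and did not simply follow their level. The coefficient of variation over the 6 libraries was 7.43% for PRDX1, 9.56% for SRXN1, 10.04% for TXNRD1, 16.7% for TXN and 18.8% for GCLM, and 21.6%, 42.7% and 46.0% for NFE2L2, KEAP1 and GCLC. Genes within 2-fold of the same mean level had median values of 12.2% (PRDX1), 22.7% (SRXN1), 12.7% (TXNRD1), 13.5% (TXN), 39.2% (GCLM), 23.8% (NFE2L2), 31.1% (KEAP1) and 38.4% (GCLC). SRXN1 and GCLM varied less than most genes of their level, with only 5.87% and 10.5% of such genes varying less. KEAP1, TXN and GCLC varied more than most (72.1%, 64.2% and 62.6% varied less).

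Below the gene level, TXNRD1 was stable as a sum and unstable as transcripts. Its sum differed by at most 1.29-fold between libraries, whereas 4 different transcripts out of 16 were the most abundant in 1 library or another. In SNHG10 replicate 1 this was TXNRD1-212, at 223 FPKM and 56.5% of the gene, although that transcript read 1.66 and 0 in the other SNHG10 libraries and 0, 11.7 and 1.47 with LacZ probes. TXNRD1-203 led in SNHG10 replicate 2 (139 FPKM, 39.6%) and LacZ replicate 2 (150 FPKM, 42.0%) and was at most 7.24 FPKM in the other 4 libraries. TXNRD1-215 led in SNHG10 replicate 3 (174 FPKM, 42.4%), and TXNRD1-205 in LacZ replicates 1 and 3 (174 FPKM in each). In those LacZ libraries TXNRD1-215 was close behind, at 172 and 166 FPKM. It read 0.036 and 0 in SNHG10 replicates 1 and 2 and 44.3 in LacZ replicate 2. These leaders did not sort by probe set.

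Many of these TXNRD1 models share most of their span. TXNRD1-201, TXNRD1-202 and TXNRD1-203 have the same start and end in the files (chromosome 12, 104680460 to 104744083), and 8 of the 16 reach within 2000 bases of the gene's 3′ end. Such mixing was also measured in other genes. Library pairs shared on average 44.5% of their TXNRD1 isoform composition (the summed smaller share of each transcript), 45.3% within a probe set and 44.0% between probe sets. Among 150 tested genes that list at least 10 transcripts and average 10 FPKM or more, the median was 52.4%, 30.7% of them were below TXNRD1, and 30% had 4 or more different leading transcripts.

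**Figure D3:**
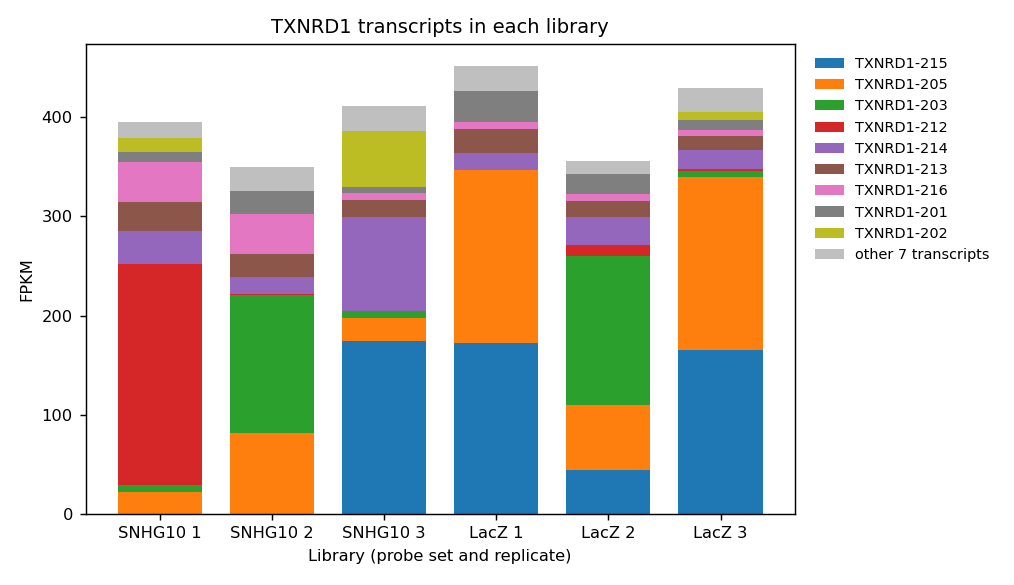
Stacked FPKM of TXNRD1 transcripts in each of the 6 libraries, with the 9 most abundant in colour and the other 7 in light grey. Total height varies from 350 to 451 FPKM, while the leading transcript changes between TXNRD1-212, TXNRD1-203, TXNRD1-215 and TXNRD1-205.

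No transcript row of the 9 genes passed the test either. Of the 39 rows, 28 had at least 1 FPKM in 3 libraries and were tested among 16618 rows, and 0 passed, against 0.0903% of all rows. An unadjusted p under 0.05 was found for 2 of the 28, both of TXNRD1, where 5.66% of all rows had one, and the libraries of the probe sets separated fully in 0 of the 28, where 10.5% of all rows did. TXNRD1-205 (chromosome 12, 104680460 to 104744055) stood at 21.5, 81.9 and 23.1 FPKM in SNHG10 libraries, and at 174, 65.6 and 174 in LacZ controls. Its log2 difference was -1.83 ± 0.62 (limma adjusted p = 0.763), and the replicates 2 broke the separation. TXNRD1-216 (104682673 to 104713351), which stops well before the 3′ end of the gene, read 40.1, 39.8 and 7.23 FPKM against 7.36, 6.91 and 6.51, a log2 difference of 1.60 ± 0.65 (limma adjusted p = 0.867).

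The 8 TXNRD1 transcripts that end early, grouped after their values were seen, held 21.2%, 23.9% and 11.8% of the gene with SNHG10 probes, against 12.4%, 10.1% and 10.2% with LacZ probes. SNHG10 replicates 1 and 2, the libraries with high TXNRD1-216, stood above the other 4, and SNHG10 replicate 3 lay within the LacZ values.

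The other genes with several listed transcripts ranged from 1 clear leader to none. PRDX1-202 held 91.5%, 82.0% and 89.6% of PRDX1 with SNHG10 probes, against 86.6%, 76.3% and 84.3% with LacZ probes, and led in all 6 libraries. KEAP1-201 also led in all 6, with 57.1% to 100% of the gene, and 4 of the 5 KEAP1 rows were listed at 0 in at least 1 library. NFE2L2-201 stood at 14.1, 10.2 and 8.18 FPKM in SNHG10 libraries, and at 6.36, 10.9 and 17.2 in LacZ controls. NFE2L2-202, which has the same 3′ end (178095033) and starts further downstream, read 0.823, 5.82 and 9.37 against 8.60, 11.4 and 1.04. The 2 changed places, NFE2L2-202 leading in SNHG10 replicate 3 and LacZ replicates 1 and 2. NFE2L2-203 was listed at 0 in 5 libraries and at 9.47 FPKM in SNHG10 replicate 2.

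GCLC was split between GCLC-201, at 1.67, 1.29 and 4.81 FPKM in SNHG10 libraries, and 3.60, 0 and 3.05 in LacZ controls, and the shorter GCLC-209, at 6.06, 0 and 0 against 3.75, 3.40 and 0. An exact 0 may be a failed estimate, so these are given by library. The share of the main transcript differed between the probe sets by -1.67 percentage points for NFE2L2-201, 5.38 for KEAP1-201, 26.3 for GCLC-201, -15.6 for TXNRD1-215 and 5.30 for PRDX1-202, with two-sided exact permutation p from 0.3 to 1 and overlapping libraries for each. Leaving out 1 library moved them widely, to 6.84 points for GCLC-201 without SNHG10 replicate 3 and 8.97 without LacZ replicate 2, to between -29.7 and -8.54 for TXNRD1-215, and to 2.24 for PRDX1-202 without LacZ replicate 2. GCLM, NQO1, SRXN1 and TXN had 1 listed transcript each.

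**Figure D4:**
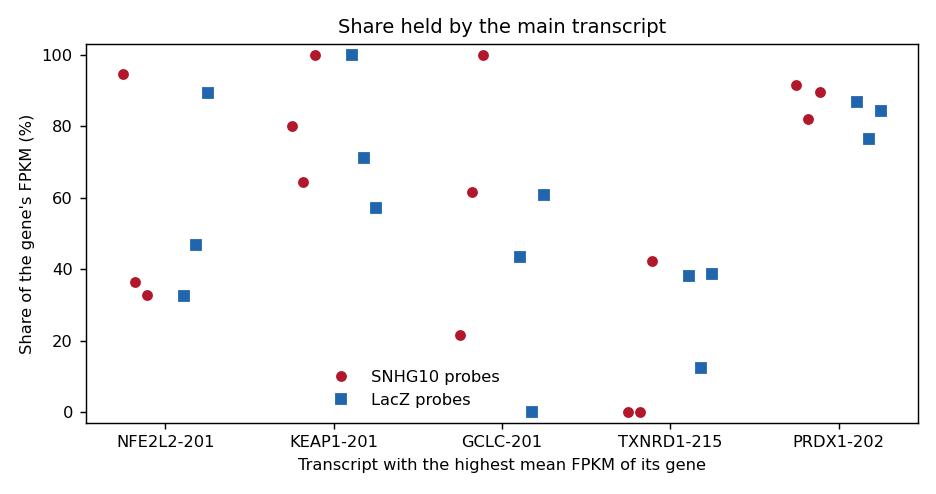
Share of a gene's FPKM (%) held by the transcript with the highest mean, for the 5 genes with several listed transcripts, with circles for the 3 SNHG10 and squares for the 3 LacZ libraries. PRDX1-202 stays between 76.3% and 91.5%, whereas GCLC-201 runs from 0% to 100% and the probe sets overlap throughout.

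Other genes of the pathway were described from wider lists. Of 16 tested NRF2 regulators (cofactors, MAF partners, ligase subunits), 6 lay above and 10 below 0 in log2 difference, with a median of -0.11 (-0.06 and the same split after median-ratio scaling), and none passed. CREBBP, a histone acetyltransferase that acts as an NRF2 coactivator, stood at 8.10, 9.93 and 10.7 FPKM in SNHG10 libraries, and at 15.6, 24.8 and 21.7 in LacZ controls, fully separated. Its log2 difference was -1.02 ± 0.25 (limma adjusted p = 0.840). With SQSTM1, also lower, 2 of the 16 regulators separated the probe sets, where 11.4% of all genes tested did (743 lower and 435 higher). MAFF, a small MAF partner, read 5.34, 5.04 and 6.10 against 9.97, 5.72 and 12.2, and RBX1, the RING subunit of the CUL3 ligase, 15.1, 19.1 and 20.5 against 24.8, 20.4 and 24.5, both with overlapping libraries. Their log2 differences were -0.61 and -0.34. Leaving out 1 library gave -0.90 to -0.41 for MAFF (the latter without LacZ replicate 3). For RBX1 it gave -0.43 to -0.22 (the latter without SNHG10 replicate 1).

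Of 28 tested further NRF2 targets, 13 lay above and 15 below 0 (15 and 13 after median-ratio scaling), with a median of -0.0008, and none passed. PIR, the iron-binding protein pirin, stood at 3.66, 2.82 and 1.93 FPKM in SNHG10 libraries, and at 12.2, 5.41 and 15.1 in LacZ controls. Its log2 difference of -1.57 ± 0.41 went with a limma adjusted p of 0.864. SLC3A2, the heavy chain of the cystine transporter, read 75.7, 113 and 70.5 against 53.9, 54.7 and 63.1 FPKM, a log2 difference of 0.56 ± 0.20 (limma adjusted p = 0.885) that was 0.35 without SNHG10 replicate 2. The aldose reductase AKR1B1 read 25.4, 18.6 and 33.6 against 12.1, 19.6 and 17.1. PIR and SLC3A2 separated the probe sets in opposite directions. Among the 28 targets 1 separated as higher and 2 as lower (PIR and ABCC4), where 11.4% of all genes tested separated.

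The wider thioredoxin and peroxiredoxin list had 9 genes above and 15 below 0 among 24 tested (13 and 11 after median-ratio scaling), with a median of -0.04. Those with the smallest p were the glutaredoxin GLRX (25.9, 15.8 and 16.5 against 23.7, 27.1 and 31.0 FPKM), TXNDC11 (5.33, 2.89 and 7.36 against 8.16, 15.9 and 6.74) and TXNL4B (2.72, 1.73 and 1.44 against 3.91, 1.63 and 4.71). TXNL4B is on the list for its thioredoxin-like name, and a redox role was not tested. All 3 had overlapping libraries and limma adjusted p from 0.885 to 0.928.

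The glutathione list had the lowest median of these lists. Of 24 tested genes, 9 lay above and 15 below 0 (10 and 14 after median-ratio scaling), with a median of -0.25 (-0.21 with that scaling), and none passed. Over all tested genes 56.7% lay below 0, with a median of -0.05 (-0.002 with that scaling). GGCT, which cleaves gamma-glutamyl peptides, stood at 6.42, 4.96 and 6.29 FPKM in SNHG10 libraries, and at 10.7, 9.63 and 13.2 in LacZ controls, a log2 difference of -0.82 ± 0.25 (limma adjusted p = 0.885). GSTM1, a glutathione transferase, read 19.6, 20.6 and 16.6 against 25.1, 27.5 and 25.8, also separated. Its reads could be shared with close copies such as GSTM2, so its level is uncertain. With GSTP1, 3 of the 24 genes separated the probe sets, all lower. Of all genes tested 11.4% separated, 743 as lower and 435 as higher. GPX8, a peroxidase of the endoplasmic reticulum, read 4.60, 1.72 and 2.70 against 11.8, 3.71 and 23.3, with overlap. Its log2 difference of -1.57 was -2.20 without LacZ replicate 2 and -1.02 without LacZ replicate 3. Among 13 tested genes of a list of other antioxidant enzymes and related factors, 5 lay above and 8 below 0 (6 and 7 after median-ratio scaling). SECISBP2, SEPHS2 and PON2 had the smallest p, with limma adjusted p of 0.928 each.

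**Figure D5:**
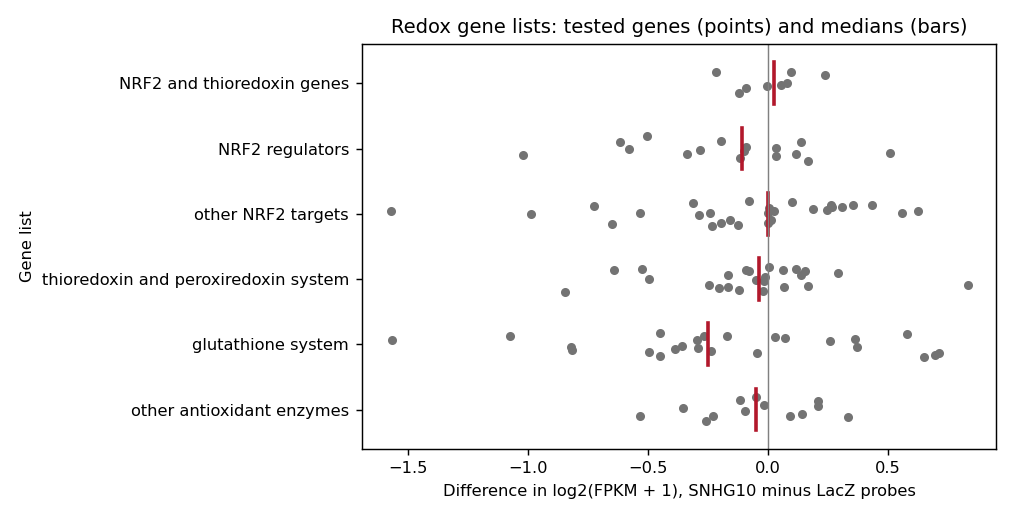
Difference in log2(FPKM + 1), SNHG10 minus LacZ probes, of each tested gene (points) in the 9-gene set and the 5 wider redox lists, with the median of each list as a bar. No point passed the test; the medians run from -0.25 (glutathione system) to 0.03 (the 9 genes).

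Across the 6 libraries the 9 genes did not move as a block. On log2(FPKM + 1), 12 of the 28 pairs of tested members had a positive Pearson r and 16 a negative r, with a median of -0.16. SRXN1 and TXN were most alike (r = 0.91) and SRXN1 and PRDX1 most opposed (r = -0.94), TXN and SRXN1 both being highest in SNHG10 replicate 3, where PRDX1 was lowest. GCLM and GCLC each followed TXNRD1 (r = 0.84 and 0.81), and NFE2L2 ran opposite to GCLC (r = -0.83). These are descriptions over 6 points that share library and scaling. Among 4254 or 4255 other tested genes averaging 10 FPKM or more, those most like NFE2L2 were PRSS23 (r = 0.99) and PGD (r = 0.98), and those most like TXNRD1 were CEBPZOS and CAT (r = 0.99 each), while 36 and 28 genes reached 0.9 or more. For KEAP1 these were PSMB3 (r = 0.99) and GPD2 (r = 0.96), for GCLM RAC1 and CYCS (0.98 each), and for GCLC LARP4 and ST6GALNAC6 (0.99 each). For SRXN1 they were GEMIN5 (0.99) and SLC39A11 (0.98), for TXN GADD45A (0.98), and for PRDX1 ABCB9 and PEF1 (0.98 each).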

How the data were processed

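Per the file headers, the deposited values are FPKM per transcript, estimated by the authors with a program not given in the sources used here. Reads were aligned with Bowtie2 2.1.0 to hg19, per the submitters' processing notes. All 28768 rows are marked protein coding. The smallest value above 0 was 5e-06 FPKM and 159 lay under 0.001, and no depth, counting interval or detection limit was computed from them. FPKM were summed per gene symbol. Genes (10304) and transcript rows (16618) reaching 1 FPKM or more in 3 or more libraries entered a linear model, limma 3.58.1 under R 4.3.3 (intensity trend, all 6 libraries, no covariate) on log2(FPKM + 1), with Benjamini-Hochberg adjustment over all rows and a threshold of 0.05. The fit was tested on simulated data. Single values were compared by two-sided exact permutation over 20 assignments (scipy 1.17.1, pandas 2.3.3).

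The members and lists were chosen with earlier results of these data known. Named from each wider list were genes past the threshold or, failing that, the 3 with the smallest p; for likeness, the 2 genes with the highest r, of which 1 is not reported here. Alternatives were other pseudocounts, filters, scalings and eBayes options, a replicate block, and each library left out.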

Additional observations from a re-analysis of the deposited data

How the results depend on the processing

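The 8 tested members gave 120 alternative log2 differences, none past the threshold (smallest limma adjusted p 0.898), and 13 changed sign. PRDX1 was 0.0573 with median-ratio scaling. Over runs leaving out 1 library, the range was -0.090 to 0.342 for NFE2L2, -0.276 to 0.467 for KEAP1, -0.283 to 0.0193 for GCLM, -0.565 to 0.183 for GCLC, -0.0408 to 0.118 for SRXN1 and -0.0757 to 0.0820 for PRDX1. TXN (0.0949 to 0.327) and TXNRD1 (-0.194 to -0.0233) kept their sign in all 15 alternatives. SNHG10 replicate 2 turned NFE2L2 (-0.090), KEAP1 (-0.276), GCLM (0.0193) and GCLC (0.183) when left out. Without SNHG10 replicate 3, NFE2L2 was -0.0151, SRXN1 -0.0408 and PRDX1 0.0820. Without LacZ replicate 1, KEAP1 was -0.102, GCLC 0.0645 and PRDX1 0.00458, and without LacZ replicate 3, SRXN1 was -0.00145 and PRDX1 0.0242. Main transcript shares over such runs ranged from -21.7 to 14.9 percentage points for NFE2L2 and -4.11 to 17.3 for KEAP1, both changing sign, and from 6.84 to 46.0 for GCLC, -29.7 to -8.54 for TXNRD1 and 2.24 to 8.14 for PRDX1. With fewer libraries such values rest on 2 in a group, whose spread is pooled with the others.

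Over all features, genes called numbered 0 in each direction except 0 to 1 higher and 0 to 1 lower in leave-one-out runs (1 lower without SNHG10 replicate 1, 1 higher without LacZ replicate 2). Transcript rows gave 8 higher and 7 lower, none of them a member, then 3 and 2 with a pseudocount of 0.1 and of 5, 3 and 3 unfiltered or with a stricter filter of 5 FPKM, 26 and 27 without trend, and 0 and 0 in each leave-one-out run. With the replicate number as a block, 0 genes and 0 and 0 transcript rows were called and no member changed its call, and the smallest limma adjusted p over all genes was 0.886. Deviations of same-numbered libraries correlated at only 0.015, 0.012 and 0.016, too little to treat them as pairs, although each library correlated best with its own number, a hint from the data only. The cause was not tested. The unknown depth limits what NQO1 and other low values can show.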
